A study of Homo sapiens with 2 samples.

Results

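Expression of 45 genes of DNA replication and cell division was followed in single cells of H9, an established human embryonic stem cell line, in 2 states. The genes come from a list of cell cycle genes: 22 from MCM2 to EXO1 whose RNA or protein serves S phase (S members), and 23 from TOP2A to ECT2 that serve G2 phase and mitosis (G2 and M members). All 45 were found by symbol among the 22474 genes of the deposited tables. The groups were H9 embryonic stem cells (ESC, 16 cells), the reference state, and feeder-free extended pluripotent stem cells obtained from H9 ESCs (ffEPSC, 25 cells). Both states come from the H9 line, and whether their genomes are the same was not tested here. The labels name no transgene, deletion or treatment, no passage and no culture medium for either. Cells were profiled with Smart-seq2, which copies polyadenylated RNA of a single cell over its full length and amplifies it without molecular barcodes.

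A dividing cell copies its genome in S phase and divides it in mitosis, and many genes for either task are transcribed in a wave. Genes needed in S phase are switched on at the G1 to S transition, largely through E2F transcription factors that are held back by RB family proteins. Genes needed in G2 and mitosis are repressed earlier in the cycle by the DREAM complex and later activated by B-MYB and FOXM1, often through a CHR element (cell cycle genes homology region) and CCAAT boxes bound by NF-Y. Human pluripotent cells cycle fast, with a short G1 phase and much of the cycle spent in S phase.

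Promoter letters known from these 2 waves are shown for the genes that the values below turn on. RefSeq promoter windows of 300 bases (250 before and 50 after the annotated start, GRCh38.p14) matched 37 of the 45 genes by symbol, 18 S members and 19 G2 and M members. MCM4, MCM5, RPA2, E2F8, AURKA, UBE2C, BIRC5 and TTK had no entry. The E2F letters searched were TTGGCGC, its variant TTCCCGC, the related form TTCGCGC, and the related form TTGCCGC, all on both strands, and they can overlap each other and a CCAAT box. The CHR letters were TTTGAA or the variant TTCGAA on both strands. In capitals below is the E2F match of S members, each line read 5′ to 3′ on the gene's own strand.
MCM7: ggcgacgtttcGCGCCAAtttcggttggc
UNG: cgggccgcttgGCGCCAAttgctgaccgc
RFC2: tgcctcgggtgGCGGGAAgaggaggcgcg
MCM6: ggtcaggtttgGCGCGAAatctccagctc
GINS2: ctctcgccgtgGCGGGAAaacggcggccg
CDC6: gccattcggatTTGGCGCgagcgcggctg
PCNA: cagcgtcagggGCGGGAAaaggcgtgcgt
MCM2: gtgaaccacttTTCGCGCgaaacctggtt
They lie at chr7:100101385-100101413 (minus strand), chr12:109097581-109097609 (plus), chr7:74254387-74254415 (minus), chr2:135876512-135876540 (minus), chr16:85688968-85688996 (minus), chr17:40287876-40287904 (plus), chr20:5126664-5126692 (minus) and chr3:127598403-127598431 (plus), in the order shown. In MCM7 and UNG the last letters of the match also start a CCAAT box. For G2 and M members the capitals mark the CHR match.
KIF23: ctgattggcccgTTTGAAatgcgccaggcg
TOP2A: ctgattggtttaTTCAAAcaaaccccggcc
PLK1: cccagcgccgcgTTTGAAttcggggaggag
CDC20: cgacggttggatTTTGAAggagccaatagg
CDK1: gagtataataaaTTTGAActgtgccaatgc
BUB1: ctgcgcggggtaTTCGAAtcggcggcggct
BUB1B: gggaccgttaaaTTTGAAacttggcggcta
CENPA: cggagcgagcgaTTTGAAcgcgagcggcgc
They lie at chr15:69414282-69414311 (plus), chr17:40418030-40418059 (minus), chr16:23678848-23678877 (plus), chr1:43358904-43358933 (plus), chr10:60778158-60778187 (plus), chr2:110678045-110678074 (minus), chr15:40161034-40161063 (plus) and chr2:26786026-26786055 (plus), in the order shown. The CENPA and PLK1 matches begin 18 and 29 bases before the start.

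E2F letters were in 14 of 18 S member windows (77.8%), in 5 of 19 G2 and M member windows (26.3%) and in 13.0% of all 35116 windows of this length. CHR letters were in 2 of 18 S member windows (11.1%), in 16 of 19 G2 and M member windows (84.2%) and in 16.4% of all windows. CHR letters together with CCAAT on either strand were in 14 of 19 G2 and M member windows (73.7%) and in 6.38% of all windows. The CENPA window holds 1 match to each of the E2F and CHR letters. Longer stretches just upstream of the start show how the elements sit in MCM6 (S wave, chr2:135876444-135876563, minus strand) and MKI67 (mitotic wave, chr10:128126424-128126543, minus strand), where no annotated exon overlaps the stretch. Capitals mark the E2F letters, the CHR letters and CCAAT or its complement ATTGG.
MCM6: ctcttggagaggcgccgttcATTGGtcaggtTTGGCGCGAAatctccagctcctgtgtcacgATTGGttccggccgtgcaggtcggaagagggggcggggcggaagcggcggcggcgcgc
MKI67: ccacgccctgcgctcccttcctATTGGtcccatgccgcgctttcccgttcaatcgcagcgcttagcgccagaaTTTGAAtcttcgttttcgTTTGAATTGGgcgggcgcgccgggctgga
In MCM6 a pair of E2F matches overlap between the CCAAT boxes, and in MKI67 the second CHR match runs into a CCAAT box. A match is a description of letters and not a binding site measured here.

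Each state was 1 deposited sample and cells are not replicates, so there is no test between the states and all values describe these libraries. Gene counts were 265412149 over the ESC library (11714517 to 19965639 per cell) and 374101290 over the ffEPSC library (12507469 to 17811209). Levels are gene counts scaled to the total of a cell or of a library (counts per 1e+06, CPM). A ratio is the ffEPSC level over the ESC level, each with 1 CPM added, on the log2 scale, which understates differences of low genes. A set number from 1 to 4 in the cell names, of unstated meaning, had cells of both states only in set 1 (7 ESC and 3 ffEPSC cells) and set 3 (9 and 2). Pluripotent cell markers were read in both libraries: all 8 listed markers reached 5 CPM, all 8 were higher and none 2-fold higher in ffEPSC, and their summed level per cell was 1183 to 4586 CPM in ESC and 2650 to 5866 CPM in ffEPSC. Of 8 fibroblast or feeder markers 5 had a row, 4 reached 5 CPM and 3 of those were at least 2-fold lower in ffEPSC, with summed levels of 107.5 to 657 CPM in ESC and 32.5 to 406 CPM in ffEPSC. Of 12 differentiated lineage markers 7 had a row and 1, KRT7, reached 5 CPM in a library. In 4 ESC cells POU5F1, the OCT4 gene, was under 300 CPM. They were also the shallowest ESC cells, so the list medians, the S score and the co-variation of members are also given without them. Ratios of single genes are given without them only where stated, and others can differ.

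Of the 45 genes, 44 reached 5 CPM in at least 1 library, and CENPA was the exception to a common picture of small differences: it was the only member at least 2-fold higher in ffEPSC, and 0 members were at least 2-fold lower. Of all 10825 genes at that level, 8.30% were higher and 5.84% were lower by that factor. The S members had a median log2 ratio of -0.17, with 5 higher and 17 lower of 22, between -0.62 (GINS2) and 0.45 (E2F8). The 22 G2 and M members at 5 CPM had a median of -0.10, with 8 higher and 14 lower, between -0.78 (BUB1B) and 1.85 (CENPA). The median of all genes was 0.04. The S median was 0.01 within set 1, 0.04 within set 3 and -0.37 once the 4 ESC cells low in POU5F1 were left out, so its sign rests on which cells are compared. The G2 and M median stayed below 0 in each of these settings, at -0.28, -0.24 and -0.03. A pooled level cannot tell fewer cells in a phase from less RNA per cell in that phase.

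**Figure D1:**
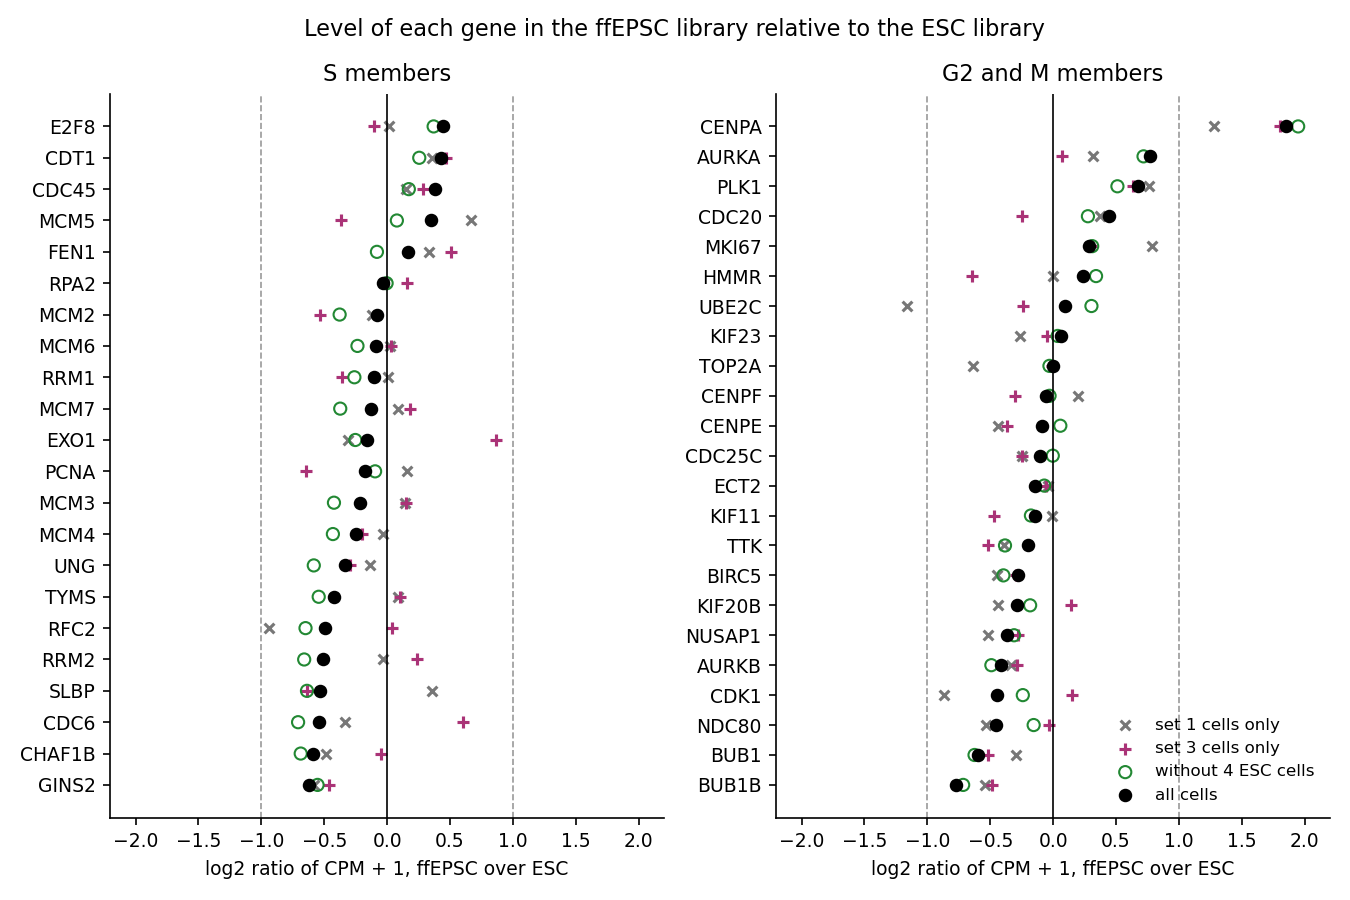
Log2 ratio of CPM + 1, ffEPSC over ESC, for each S member (left) and each G2 and M member (right); filled points use all cells, crosses set 1, plus signs set 3 and open circles all cells but the 4 ESC cells low in POU5F1, and dashed lines mark 2-fold. CENPA at 1.85 is the only filled point beyond 2-fold, and the S members sit lower without the 4 ESC cells (median -0.37 against -0.17).

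Over all cells, the replicative helicase MCM2 to MCM7, loaded on origins in G1, was read at similar levels in both libraries. MCM2 stood at 94.2 CPM in ESC and 88.9 CPM in ffEPSC (log2 ratio -0.08), with 0.854 CPM in the lowest, 89.6 in the median and 297 in the highest ESC cell, and 15.4, 85.8 and 142 CPM in ffEPSC cells. MCM4 stood at 405 and 342 CPM (-0.24), with 75.3, 347 and 820 CPM over ESC cells and 202, 325 and 628 CPM over ffEPSC cells. MCM7 stood at 643 and 587 CPM (-0.13), with 103, 686 and 1112 CPM over ESC cells and 401, 551 and 965 CPM over ffEPSC cells. For all 3 the ESC cells reached both lower and higher than the ffEPSC cells. Of the other subunits, MCM3 had a ratio of -0.21, MCM6 of -0.09 and MCM5 of 0.35. Each turned within a set: MCM3 was at 0.14 and 0.15 within sets 1 and 3, MCM6 at 0.02 and 0.03, and MCM5 at -0.37 within set 3. MCM7 also turned, at 0.09 within set 1 and 0.18 within set 3. Without the 4 ESC cells low in POU5F1 the ratios were -0.38 (MCM2), -0.42 (MCM3), -0.43 (MCM4) and -0.37 (MCM7). MCM6 was then at -0.24 and MCM5 at 0.08.

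Helicase loading and activation genes were split. GINS2, a subunit of the GINS complex of the active helicase, stood at 198 CPM in ESC and 129 CPM in ffEPSC (log2 ratio -0.62). Its levels were 148, 190 and 278 CPM over ESC cells and 48.6, 119 and 219 CPM over ffEPSC cells, so that 18 of 25 ffEPSC cells were below every ESC cell. The GINS2 ratio was -0.58 within set 1, -0.46 within set 3 and -0.55 without the 4 ESC cells. CDC6, which loads the MCM helicase, stood at 247 and 170 CPM (-0.54) but at 0.60 within set 3. CDT1, its loading partner, stood at 21.4 and 29.2 CPM (0.43), and CDC45, the other helicase activator, at 48.6 and 63.8 CPM (0.38). These last genes kept a positive ratio within each set and without the 4 cells, although CDC45 lies on chromosome 22, where the median of all genes was 0.48.

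Genes that work at the fork and in repair mostly differed little over all cells. PCNA, the sliding clamp, stood at 364 and 322 CPM (-0.18), with 185, 364 and 552 CPM over ESC cells and 174, 308 and 500 CPM over ffEPSC cells. RPA2, which coats single-stranded DNA, stood at 245 and 240 CPM (-0.03), with 134, 251 and 359 CPM over ESC cells and 146, 223 and 365 CPM over ffEPSC cells. RFC2, a subunit of the clamp loader, stood at 192 and 136 CPM (-0.50), with 52.9, 192 and 300.4 CPM over ESC cells and 59.8, 130.1 and 272 CPM over ffEPSC cells. The PCNA and RPA2 cells of the states overlapped almost wholly. Within sets 1 and 3 the ratios were 0.16 and -0.65 for PCNA, -0.01 and 0.16 for RPA2, and -0.94 and 0.04 for RFC2. UNG, which removes uracil from DNA, stood at 213 and 169 CPM (-0.33), with 9.19, 190.5 and 417 CPM over ESC cells and 86.0, 147 and 309 CPM over ffEPSC cells. The flap endonuclease gene FEN1 had a ratio of 0.16 and the exonuclease gene EXO1 of -0.16. EXO1 was at 0.86 within set 3, and FEN1 at -0.08 without the 4 ESC cells. Nucleotide supply genes had ratios of -0.51 (RRM2) and -0.11 (RRM1), the ribonucleotide reductase subunits, and -0.42 (TYMS, thymidylate synthase). Within sets 1 and 3 these were -0.03 and 0.24 for RRM2, 0.0035 and -0.36 for RRM1, and 0.09 and 0.10 for TYMS. Histone supply genes were SLBP, which binds histone mRNA, at -0.53 (0.35 within set 1 and -0.64 within set 3), and CHAF1B of the chromatin assembly factor at -0.59. E2F8, a repressor of the E2F wave, was low and variable at 9.63 and 13.5 CPM (0.45, and -0.10 within set 3), with no read in 5 of the ESC cells and in 4 of the ffEPSC cells.

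The mitotic kinase genes differed in opposite directions. AURKA, which matures centrosomes and the spindle, stood at 222 CPM in ESC and 378 CPM in ffEPSC (0.77), with 53.1, 206 and 425 CPM over ESC cells and 91.9, 384 and 787 CPM over ffEPSC cells. In AURKA 10 of 25 ffEPSC cells were above every ESC cell. The ratio was 0.32 within set 1 and 0.07 within set 3, and AURKA lies on chromosome 20, where the median of all genes was 0.39. PLK1, the Polo kinase of mitotic entry and exit, stood at 239 and 382 CPM (0.67), with 19.2, 197 and 484 CPM over ESC cells and 84.3, 417 and 797 CPM over ffEPSC cells. In PLK1 8 ffEPSC cells were above every ESC cell, and its ratio was 0.76 within set 1, 0.64 within set 3 and 0.51 without the 4 ESC cells.

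Checkpoint kinases and CDK1 were lower. BUB1B, the checkpoint protein BUBR1, stood at 190 CPM in ESC and 110 CPM in ffEPSC (-0.78), with 66.3, 166 and 409 CPM over ESC cells and 0.320, 122 and 186 CPM over ffEPSC cells. BUB1, which recruits checkpoint proteins to kinetochores, stood at 306 and 202 CPM (-0.59), with 132, 307 and 560 CPM over ESC cells and 33.3, 196 and 444 CPM over ffEPSC cells. Below every ESC cell were 5 ffEPSC cells in BUB1B and 6 in BUB1, and no ffEPSC cell was above every ESC cell in either gene. BUB1B had a ratio of -0.54 within set 1 and -0.49 within set 3, and BUB1 of -0.30 and -0.52. CDK1, the kinase that drives mitosis, stood at 351 and 257 CPM (-0.44), with 149, 359 and 749 CPM over ESC cells and 20.5, 275 and 565 CPM over ffEPSC cells. The CDK1 ratio was -0.87 within set 1 but 0.15 within set 3. TTK, the checkpoint kinase MPS1, had a ratio of -0.20. AURKB, the kinase of the chromosomal passenger complex, stood at 358 and 269 CPM (-0.41), with 148, 302 and 634 CPM over ESC cells and 83.5, 254 and 472 CPM over ffEPSC cells.

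CENPA, the histone H3 variant that marks centromeres, was low in both libraries and stood out between them. It lies at chr2:26764289-26801067 (GRCh38, plus strand) and stood at 6.18 CPM in ESC and 24.9 CPM in ffEPSC (log2 ratio 1.85, 3.61-fold on that scale). ESC cells had 0 CPM in the lowest, 2.59 in the median and 24.0 in the highest cell, and ffEPSC cells had 0, 22.05 and 78.6 CPM. No CENPA read was found in 5 ESC cells and in 1 ffEPSC cell, and 11 ffEPSC cells were above every ESC cell, although the ranges overlapped. At least 1 CPM was read in 8 ESC cells and 24 ffEPSC cells, and the same numbers held after each cell was thinned to 11000000 counts. The ratio was 1.28 within set 1, 1.81 within set 3 and 1.95 without the 4 ESC cells, against -0.62 for set 3 over set 1 within ESC and 0.91 for set 4 over set 2 within ffEPSC. In the G2 and M class of cells defined below the CENPA median was 11.5 CPM in ESC and 22.05 CPM in ffEPSC, and in the S class 0 and 11.6 CPM. In the class low in both it was 0.07 CPM in ESC (2 cells) and 24.9 CPM in ffEPSC (5 cells). Of the exonic bases of CENPA 6.96% are shared with SLC35F6 on the same strand, whose part in the counts was not tested.

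**Figure D2:**
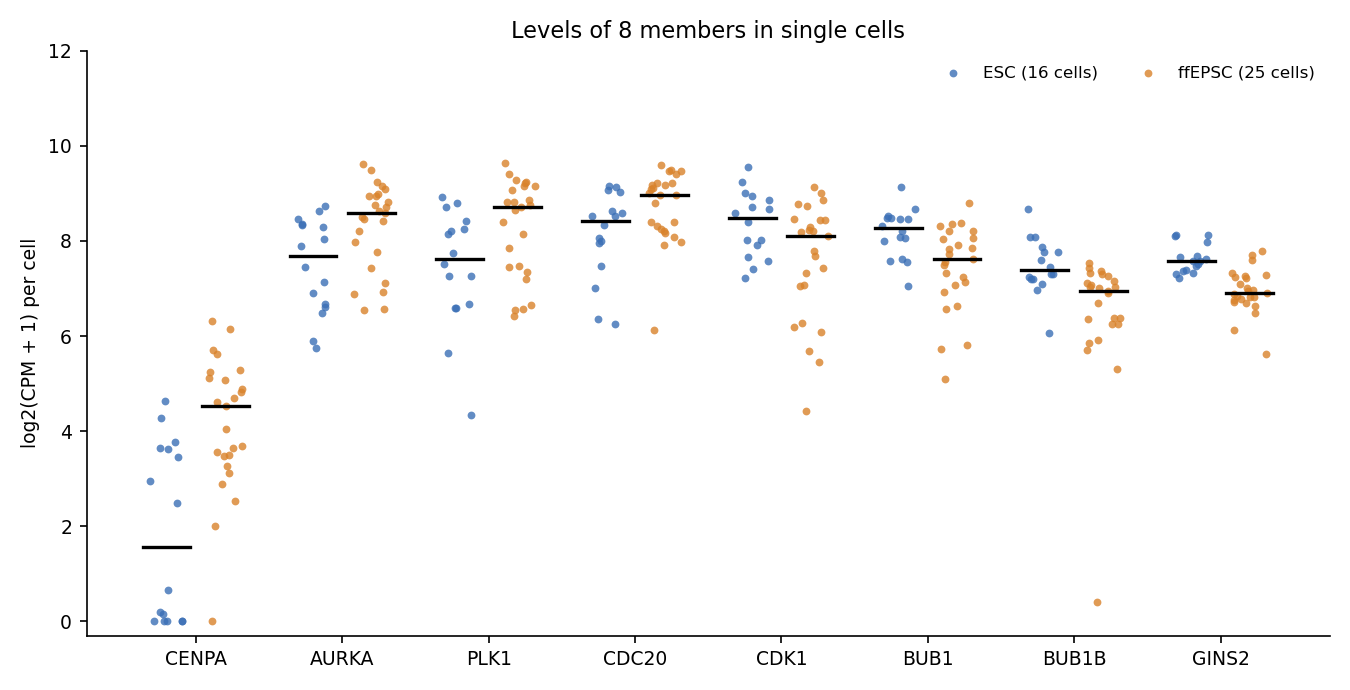
Level per cell, as log2(CPM + 1), of 8 members in ESC cells (blue, 16) and ffEPSC cells (orange, 25); each point is a cell and bars are medians. CENPA is at 0 in 5 ESC cells and 1 ffEPSC cell, 18 of 25 ffEPSC cells lie below every ESC cell in GINS2, and the other genes overlap more.

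Other kinetochore and passenger genes did not share the CENPA ratio. Ratios were -0.09 for CENPE, a kinetochore motor, -0.45 for NDC80, the microtubule-binding kinetochore subunit, and -0.28 for BIRC5, the passenger protein survivin. CENPF, a large kinetochore protein of G2 and mitosis, stood at 310 and 298 CPM (-0.06), with 101 to 464 CPM and a median of 297 CPM over ESC cells, and 82.2 to 547 CPM and a median of 287 CPM over ffEPSC cells. Of 22 genes at 5 CPM that deposit CENPA or form the inner centromere, 7 were higher, 15 lower and 0 were 2-fold apart, with a median of -0.12. The largest ratios among them were -0.79 (CENPI), -0.74 (KNL1), -0.53 (CENPQ) and -0.46 (CENPX).

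Spindle, cytokinesis and chromosome genes were close to equal in the pooled libraries. TOP2A, the topoisomerase that untangles sister chromatids, stood at 516 and 515 CPM (-0.00), with 139, 428 and 1032 CPM over ESC cells and 99.1, 513 and 1231 CPM over ffEPSC cells. MKI67, the Ki-67 protein that coats mitotic chromosomes, stood at 72.2 and 88.1 CPM (0.28), with 3.14, 63.9 and 138 CPM over ESC cells and 11.6, 77.3 and 179.6 CPM over ffEPSC cells. KIF23, a motor of the central spindle, stood at 164 and 172 CPM (0.06), with 32.2, 153 and 283 CPM over ESC cells and 40.6, 165 and 322 CPM over ffEPSC cells. In each of these genes the cells of a state differed among themselves by far more than the pooled levels did. Within sets 1 and 3 the ratios were -0.64 and -0.0058 for TOP2A, 0.79 and 0.30 for MKI67, and -0.27 and -0.05 for KIF23. Ratios were -0.15 for KIF11, the motor that separates spindle poles, -0.29 for KIF20B, a cytokinesis motor (0.14 within set 3), 0.24 for HMMR, a spindle protein (-0.65 within set 3), and -0.14 for ECT2, the activator of RhoA at the cleavage furrow. NUSAP1, a spindle protein, was listed at only 0.686 and 0.305 CPM, and 62.2% of its exonic bases are shared with another annotated gene, so its level is uncertain.

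Genes that set the timing of mitotic entry and exit were also mixed. CDC20, which activates the anaphase-promoting complex, stood at 346 and 469 CPM (0.44), with 75.7, 343 and 570 CPM over ESC cells and 69.3, 501 and 772 CPM over ffEPSC cells, and its ratio was -0.25 within set 3. UBE2C, the ubiquitin-conjugating enzyme of that complex, stood at 700.1 and 747 CPM (0.09) but at -1.16 within set 1. CDC25C, the phosphatase that activates CDK1, stood at 52.4 and 48.6 CPM (-0.11), with 0.109, 60.5 and 95.3 CPM over ESC cells and 0, 45.5 and 89.6 CPM over ffEPSC cells. Across 6 ways of comparing the states (all cells, cell means, set 1, set 3, without the 4 ESC cells, another scale factor), 6 of 22 S members and 14 of 22 G2 and M members kept the sign of their ratio. Higher in all 6 were CDC45 and CDT1 of the S members and CENPA, MKI67, AURKA and PLK1 of the G2 and M members. Lower in all 6 were MCM4, GINS2, UNG and CHAF1B, and TOP2A, BUB1, BUB1B, AURKB, CDC25C, KIF11, BIRC5, TTK, NDC80 and ECT2. These ways share most of their cells, so they are not separate evidence. The share of all genes that kept their sign is not given here, so the counts lack a background. A kept sign can be a very small ratio: TOP2A was at -0.0023 over all cells and -0.0058 within set 3, but at -0.64 within set 1.

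Position in the genome went along with the ratios over all cells, but not within set 3. Chromosomes 5, 11, 14, 20 and 22, known from earlier work on these data to be higher as a whole in ffEPSC, carry 10 members: MCM5, CDC45, FEN1, E2F8, RRM1, PCNA, AURKA, UBE2C, HMMR and CDC25C. Of these 10 members 7 were higher in ffEPSC, with a median of 0.20, against 6 higher of 34 on the other chromosomes, with a median of -0.21. Of all genes, 1483 of 1945 on the 5 chromosomes were higher (median 0.35) and 3925 of 8241 elsewhere (median -0.03). Within set 1 the members had medians of 0.08 on these chromosomes and -0.13 elsewhere, and all genes of 0.38 and -0.02. Within set 3 the members had medians of -0.24 and -0.04, and all genes of -0.03 and -0.04. Without members on these chromosomes the S median was -0.29 and the G2 and M median -0.14. AURKA minus the median of chromosome 20 was 0.38, and PLK1 minus that of chromosome 16 was 0.59. Whether the chromosomes account for any member's ratio was not tested.

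Per kilobase of exon, members ranged from 2.33 CPM (E2F8) to 544 CPM (UBE2C) in ESC and from 3.26 to 581 CPM for the same genes in ffEPSC, leaving out NUSAP1. Exons of other genes overlap 46.6% of TYMS, 23.6% of MCM2 and 12.5% of PLK1 on the opposite strand, and 20.2% of RRM2 and 10.2% of BUB1B on the same strand. Whether counting used the strand is not stated, so the levels of these genes are uncertain to that degree.

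The S score of a cell is the mean log2(CPM + 1) over the 22 S members, and its G2 and M score the same mean over the other 23. The mean S score was 6.86 ± 0.74 (SD over 16 cells) in ESC and 6.92 ± 0.29 (SD over 25 cells) in ffEPSC, a difference of 0.06. ESC S scores ran from 5.04 through a median of 7.06 to 7.80 and ffEPSC S scores from 6.26 through 6.90 to 7.61, so that ESC cells were both the highest and the lowest. With the 4 ESC cells low in POU5F1 left out the difference turned to -0.30, while it was 0.17 within set 1 and 0.23 within set 3. The mean G2 and M score was 6.98 ± 0.50 in ESC and 6.96 ± 0.62 in ffEPSC, a difference of -0.02 that was smaller than the spread of cells in either state. After thinning to 11000000 counts per cell the differences were 0.05 and -0.02.

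Cells were given a phase class from both scores, each centred on its mean over all 41 cells: low in both when both were below 0, and otherwise the class of the larger. By this rule 7 of 16 ESC cells were in the S class (43.8%, 95% Clopper-Pearson interval 19.8% to 70.1%) and 5 of 25 ffEPSC cells (20%, 6.83% to 40.7%). In the G2 and M class were 7 ESC cells (43.8%, 19.8% to 70.1%) and 15 ffEPSC cells (60%, 38.7% to 78.9%), and 2 ESC cells (12.5%, 1.55% to 38.3%) and 5 ffEPSC cells (20%, 6.83% to 40.7%) were low in both. The intervals cover the counting of cells only, and with 1 library per state a difference in phase mix between the states was not tested. A class is a range of scores and not a measured phase: for 2 ESC and 4 ffEPSC cells a shift of 0.1 in either score alone changes the class. Thinning left the counts of every class as they were. Within set 1 the S class held 3 of 7 ESC and 1 of 3 ffEPSC cells, and within set 3 it held 4 of 9 and 1 of 2.

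**Figure D3:**
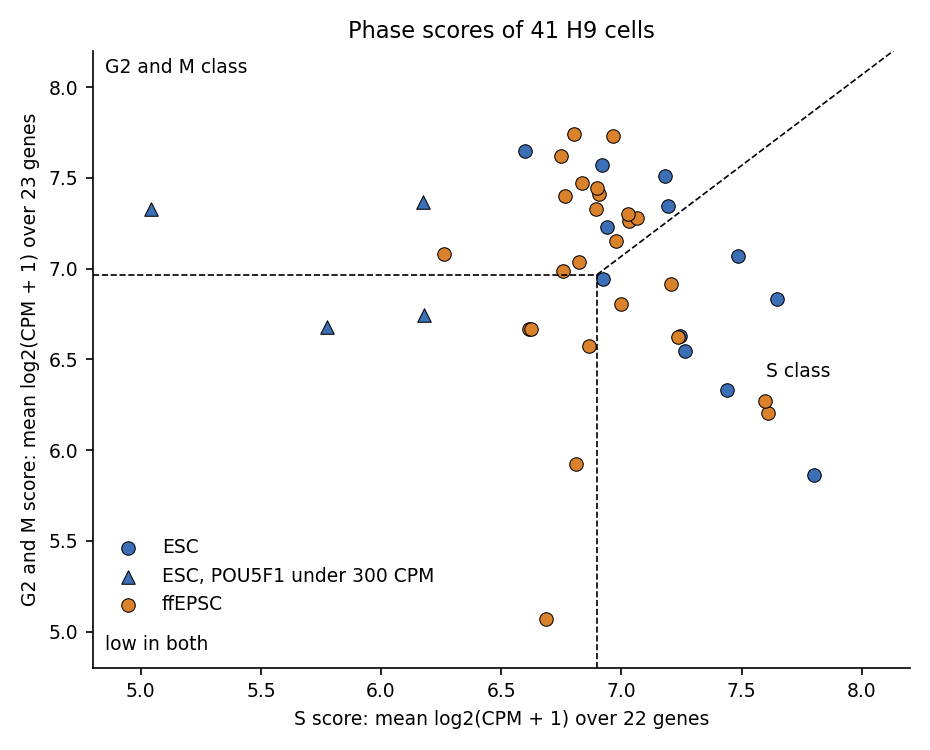
Each point is a cell, with its S score on the horizontal axis and its G2 and M score on the vertical axis, both as mean log2(CPM + 1); colours give the state, triangles the 4 ESC cells with POU5F1 under 300 CPM, and dashed lines the class limits. The ffEPSC cells vary mostly along the vertical axis (S score 6.26 to 7.61, G2 and M score 5.07 to 7.74), and the 4 triangles have the lowest S scores of all cells.

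The lowest S scores of all cells were those of the 4 ESC cells low in POU5F1. None was in the S class, 2 were in the G2 and M class and 2 were low in both, against 7, 5 and 0 of the other 12. The S members had a median ratio of -1.12 for the 4 over the other 12 (cell medians, log2 of CPM + 1), with 12 of 22 at least 2-fold lower. The same fold was passed downward by 32.8% of all genes, whose median was -0.35. In 7 S members (MCM2, MCM3, MCM5, MCM7, RRM2, FEN1 and UNG) the 4 cells were all below the other 12, and in 0 they were all above. Over all genes 5.18% were wholly below and 3.62% wholly above. MCM2 had 0.854 to 8.73 CPM in the 4 cells (median 4.17) and 39.1 to 297 CPM in the other 12 (median 98.3). MCM5 had 15.5 to 87.1 CPM in the 4 cells (median 52.7) and 234 to 605 CPM in the other 12 (median 468). The S genes did not move as a block: PCNA had medians of 440.2 CPM in the 4 and 341 CPM in the other 12, and GINS2 of 236 and 179 CPM. The G2 and M members had a median ratio of 0.18 and 0 members were wholly below or above, with CDK1 at medians of 533 against 259 CPM, PLK1 at 72.2 against 247 CPM and CDC20 at 104.5 against 376 CPM. Depth moved with the split (11714517 to 14683949 gene counts against 16349317 or more), and its part in these values was not tested.

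**Figure D4:**
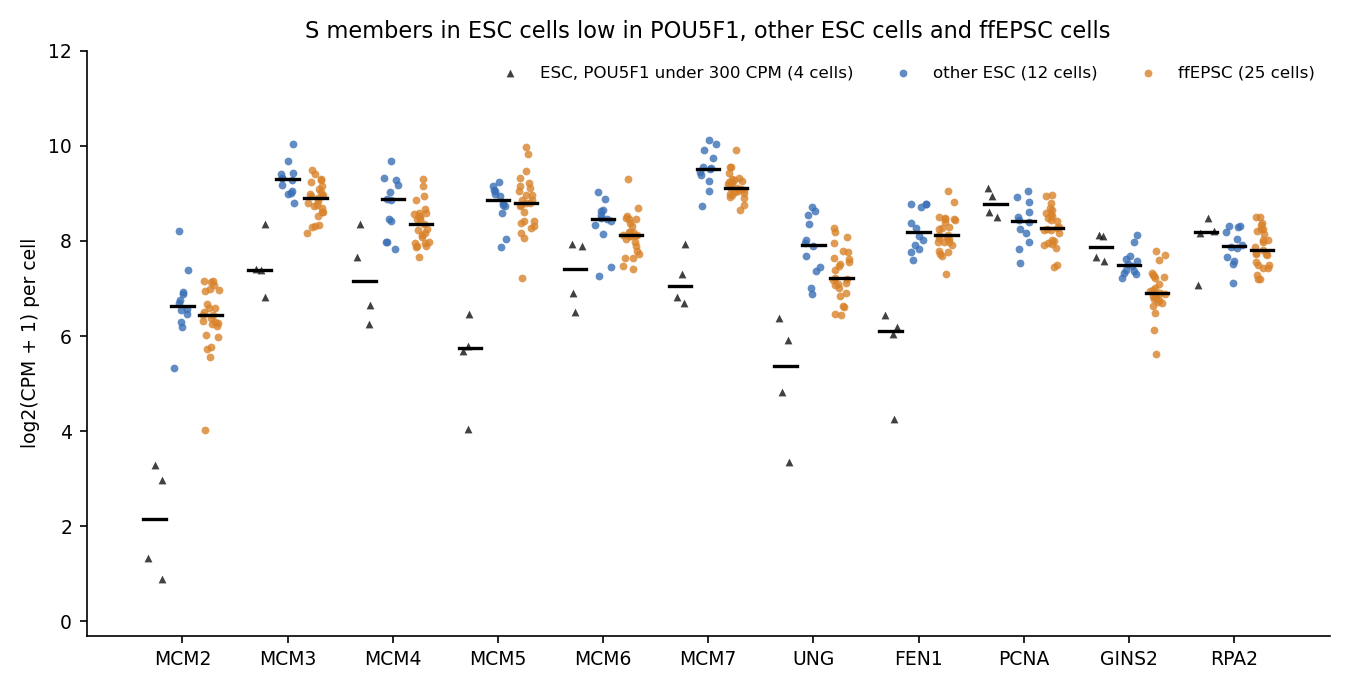
Level per cell, as log2(CPM + 1), of 11 S members in the 4 ESC cells with POU5F1 under 300 CPM (black triangles), the other 12 ESC cells (blue) and 25 ffEPSC cells (orange); bars are medians. The triangles lie below all other ESC cells in MCM2, MCM3, MCM5, MCM7, UNG and FEN1 and overlap them in MCM4, MCM6, PCNA, GINS2 and RPA2.

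Members varied together within each wave, most clearly in mitosis. Pearson r is given over the cells of a library as a description, since cells share a library and a depth. Pairs of G2 and M members had a median r of 0.38 over 16 ESC cells, 0.58 over the 12 ESC cells without the 4, and 0.41 over 25 ffEPSC cells, where 97.6% of 253 pairs were positive. Pairs of S members had medians of 0.38, 0.26 and 0.15, and pairs of an S with a G2 and M member of -0.21, -0.35 and -0.09. For pairs of all genes at 20 CPM in both libraries the medians were 0.03, -0.00 and 0.00. Positive in ffEPSC were 76.6% of the S pairs, 35.2% of the mixed pairs and 50.1% of the pairs of all genes. The S score and the G2 and M score had an r of -0.37 in ESC, -0.75 without the 4 cells and -0.15 in ffEPSC. In ESC the S score also went with gene counts (r = 0.79 over 16 cells) and with POU5F1 (r = 0.90), against 0.02 and 0.45 over the 12 cells.

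KIF23 followed the other G2 and M members most closely, with an r of 0.92 in ESC and 0.83 in ffEPSC, and next came TOP2A (0.92 and 0.75), AURKB (0.83 and 0.81) and CENPF (0.83 and 0.78). NUSAP1 (-0.13 and 0.43) and CDC25C (-0.23 and 0.55) followed least. Over the 12 ESC cells without the 4, KIF23 was at 0.94, CENPF at 0.93, NUSAP1 at -0.09 and CDC25C at -0.24. Of the S members MCM7 (0.92 and 0.60), UNG (0.91 and 0.51), MCM4 (0.83 and 0.47) and RFC2 (0.83 and 0.44) followed the rest most closely over all cells. PCNA (-0.31 and -0.16) and RPA2 (-0.17 and 0.26) followed least. The ESC values of this order rest on the 4 cells low in POU5F1. Over the other 12 ESC cells MCM5 (0.78) and RRM2 (0.72) led, MCM7 was at 0.67, MCM4 at 0.60, UNG at 0.47 and RFC2 at 0.20. PCNA (0.32) and RPA2 (0.26) were then positive, and RRM1 (-0.18) was lowest. In ffEPSC 3 of 22 S members and 17 of 23 G2 and M members had an r of 0.5 or more with the rest of their list. No share over all genes is given beside these counts, so they lack a background. Over ffEPSC cells the S score had an SD of 0.29, against 0.62 for the G2 and M score. Whether this bears on the r was not tested.

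**Figure D5:**
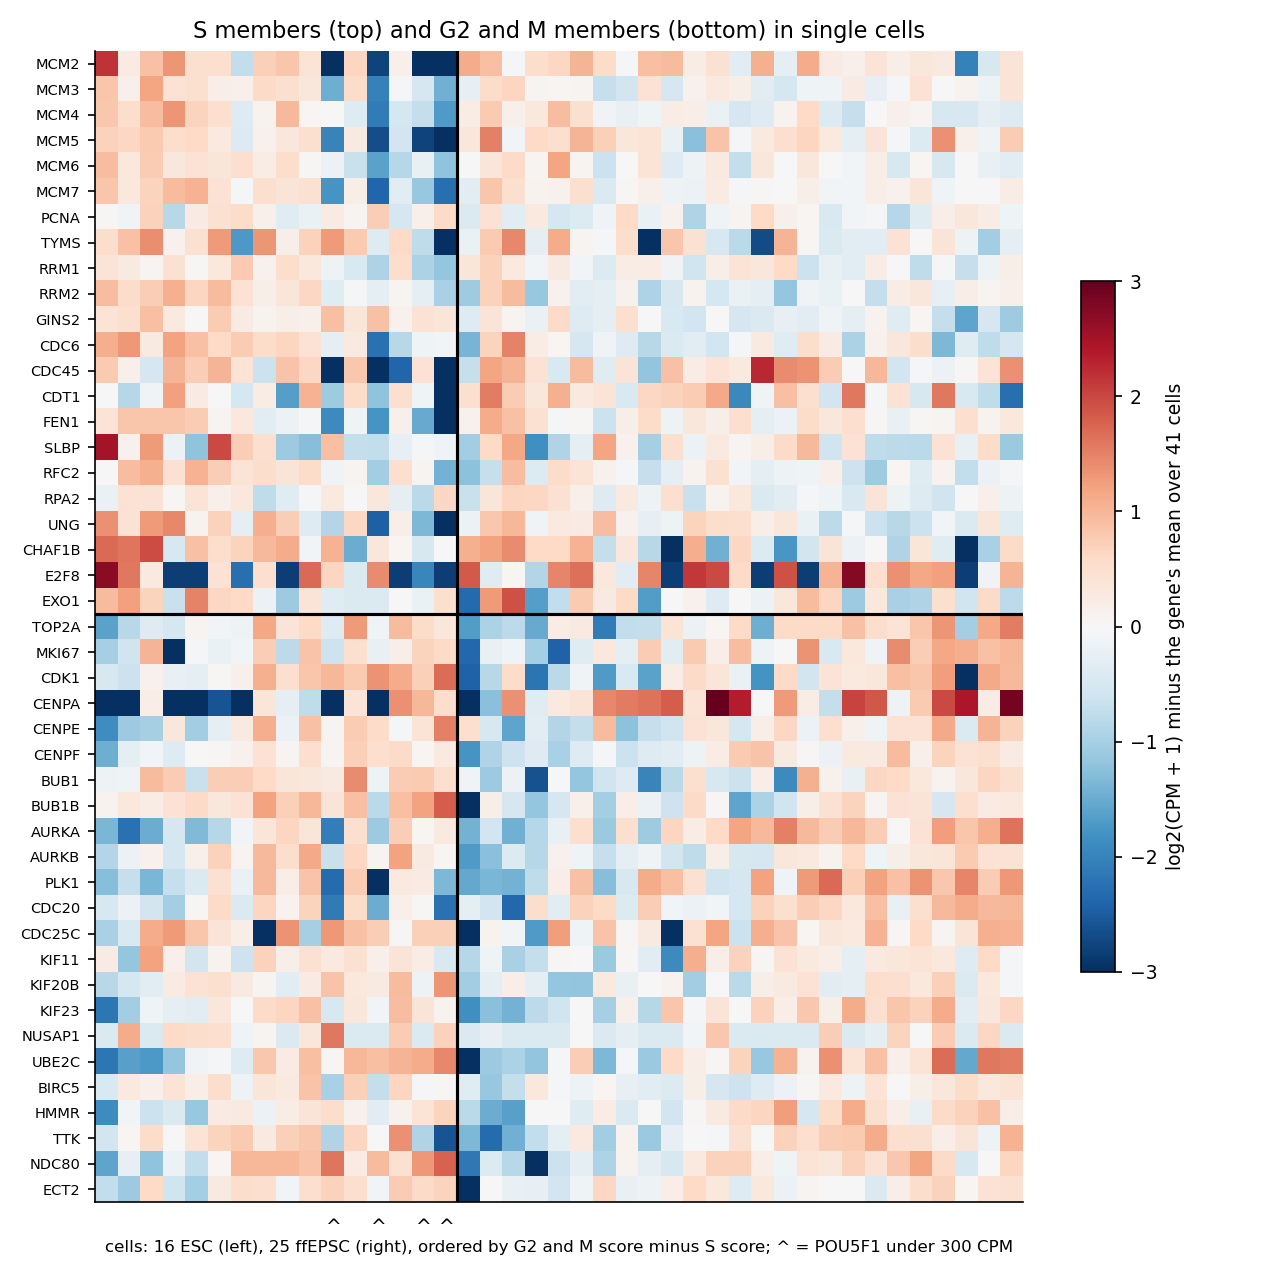
Each row is a member and each column a cell, 16 ESC left and 25 ffEPSC right, ordered within a state by G2 and M score minus S score; colour is log2(CPM + 1) minus the gene's mean over all 41 cells, capped at 3 in either direction, and carets mark the 4 ESC cells low in POU5F1. The G2 and M members (bottom) shift from blue to red along the order in both states, and the S members (top) are blue mainly in the 4 marked cells. The order is made from the scores of these same members, so a shift along it is built in and is no separate result.

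Genes of the same pathways that are no members were set beside the classes. From the S class to the G2 and M class, 64 of 76 further G2 and M genes had a higher median in ESC and 60 of 76 in ffEPSC, and 36 and 35 of 44 further S-phase genes had a lower one. The share of all genes that differed in this way is not given here, so these counts lack a background. In ESC the G2 and M class holds 2 of the 4 cells low in POU5F1 and the S class none. The S score had an r of 0.95 in ESC and 0.69 in ffEPSC with the mean of the further S genes. For the G2 and M score and the further G2 and M genes it was 0.91 and 0.93. Over the 12 ESC cells without the 4 low in POU5F1 the r was 0.86 for the S score and 0.92 for the G2 and M score. Between the states the further S genes had a median ratio of -0.22, with 15 higher and 29 lower. The only gene 2-fold apart was CCNE2, cyclin E2 (14.1 and 3.66 CPM, -1.70, but -0.11 within set 1), and ORC6 (-0.91), UHRF1 (-0.87) and POLA1 (-0.82) came next. Among the further G2 and M genes the median was 0.02, with 40 higher and 36 lower, PIMREG at -1.13, PSRC1 at 1.02, CENPI at -0.79 and KNL1 at -0.74.

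The regulators that drive these waves were measured too. Of 17 E2F, RB and DREAM genes 8 were higher and 9 lower, with a median of -0.17. MYBL2, the B-MYB gene, was the only one 2-fold apart (44.7 and 98.3 CPM, 1.12), and it lies on chromosome 20. RBL1, an RB family gene, had a ratio of 0.85, TFDP2 of -0.70 and E2F5 of -0.68. Of 19 cyclin-dependent kinases, regulators and inhibitors 12 were higher and 7 lower, with a median of 0.15. CCND1, cyclin D1, was highest among them in ratio (57.3 and 303 CPM, 2.38; 2.40 within set 1 and 1.77 within set 3), and it lies on chromosome 11. CDK6, its kinase partner, stood at 18.4 and 50.9 CPM (1.42), and CDC25A, the phosphatase that activates CDK2, at 11.6 and 27.5 CPM (1.18). Both genes were also more than 2-fold higher within sets 1 and 3. Of 17 genes of the anaphase-promoting complex and its regulators 6 were higher, 11 lower and 0 were 2-fold apart (median -0.19), with CDC23 at 0.82, CDC16 at 0.75, CDC26 at -0.75 and ANAPC1 at -0.73.

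Outside all lists, 6303 genes at 20 CPM were ranked by the mean over both libraries of their within-library r with each score. KPNA2, a nuclear import receptor, was most like the G2 and M score (0.92 in ESC and 0.74 in ffEPSC, mean 0.83), followed by an unnamed gene (ENSG00000289194, mean 0.74), HYLS1 (0.69), WDR89 (0.68), PTPN2 (0.67), DEPDC1B (0.67), BRD8 (0.66) and RHOG (0.62). The median mean r of all candidates was 0.02. ZNF544 (0.74), C19orf25 (0.74), LRRC14 (0.72), BIN3 (0.72), MSH6, a mismatch repair gene (0.71), RRP9 (0.69), HSF1 (0.69) and SAE1 (0.69) were most like the S score, with a median of 0.10 over all candidates. These genes were chosen by that r over 16 and 25 cells, so the values describe the choice.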

How the data were processed

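The authors deposited whole-number counts per gene and cell, without normalization, for 1 sample of H9 ESCs (16 cells) and 1 of ffEPSCs (25 cells), made with Smart-seq2 per the labels' protocols. Tools listed in the submitters' processing notes are HISAT2 2.2.1, Subread 2.0.6 with featureCounts, SAMtools 1.6 and bcl2fastq. Builds listed are GRCh38 with T2T-CHM13. Neither the annotation nor the strand setting is stated there. About 98.5% of non-zero ESC counts and 98.4% of ffEPSC counts were even, and amplified reads are no independent molecules, so intervals cover counting error only. Repeat tables were not used.

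Groups came from the cell type in the labels. Cells needed 100000 counts and 2000 genes, and 0 were removed. The libraries share 0 cell names, and 0 pairs of cells had identical counts. Doublets were not called and cells were not clustered. CPM, log2 ratios after adding 1 CPM, scores, classes and Pearson r were computed with Python 3.11.15, numpy 2.4.6, pandas 2.3.3 and scipy 1.17.1. Lists count genes at 5 CPM in at least 1 library. Gene positions and exons come from GENCODE 29 (GRCh38), which matched 17036 genes by symbol, and promoters from RefSeq (GRCh38.p14). The steps were tested on simulated data.

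The members, lists, the POU5F1 limit of 300 CPM and the 5 chromosomes were chosen with earlier results of these data known. All 45 members are named. Per-cell values were set for members 2-fold apart, for the 4 most and 2 least co-varying of each list, and for MCM2, PCNA, MKI67, TOP2A and CDK1. Those of GINS2, AURKA, PLK1, BUB1, BUB1B and CDC20 were added after their values were seen. Up to 4 genes of each other list are named by largest ratio, and 8 genes per score by r. CCNE2 of the cyclins is named under the S genes. Alternatives changed the pseudocount, floor, scaling, weighting of cells, depth, class limits, sets, cells and chromosomes.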

Additional observations from a re-analysis of the deposited data

How the results depend on the processing

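With 1 sample per state no replicate could be left out, and no paired analysis was possible because the labels give no replicate numbers. The S median log2 ratio of -0.17 moved to 0.0090 within set 1, 0.037 within set 3, -0.37 with the 4 ESC cells low in POU5F1 left out and -0.29 without members on chromosomes 5, 11, 14, 20 and 22. The G2 and M median of -0.10 moved to -0.15 with median-of-ratios scaling, -0.28 within set 1, -0.24 within set 3, -0.028 without the 4 cells and -0.14 without the 5 chromosomes. Members at least 2-fold lower numbered 1 within set 1 (UBE2C), where the comparison rests on 3 ffEPSC cells. Cells low in both were 0% of ESC cells within set 1 and 0% of ffEPSC cells within sets 1 and 3, and the S class was 50% of the 2 ffEPSC cells of set 3. Of 175 values recomputed under an alternative, 17 moved by more than their spread or interval and 158 did not. That rule was wide, and some settings leave a value unchanged by construction, so the tally does not measure robustness. The S score difference went from 0.06 to -0.30 without the 4 cells. It still counted as not moved, because its spread was a pooled SD over cells (0.56). CENPA stayed the only member at least 2-fold higher in all 10 alternatives, with ratios of 1.28 to 1.99. Changing the floor or leaving out the 5 chromosomes could not alter its ratio, which stayed at 1.85. The other alternatives reuse the same cells or a part of them, so they are not separate evidence. AURKA ranged from 0.07 to 0.79 and BUB1 from -0.65 to -0.30. Median-of-ratios scaling moved the median of all genes by -0.05. The causes were not tested. Thinning to 11000000 counts per cell changed no count of a phase class.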
